A study of Mus musculus with 8 samples.

Results

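The narrow ESC-only regions are short stretches of the mouse genome that were listed as ZBTB2 peaks in embryonic stem cells (ESCs) in both culture media and in neural progenitor cells (NPCs) not at all. The members were chosen by measured values, namely the peak calls of all 3 lists and the serum widths. They were found by pooling the 3 deposited peak lists and merging peaks that overlapped by 1 bp or more. A region was kept when it had at least 1 serum peak and 1 2i peak, no NPC peak, and a widest serum peak under 600 bp. A dense block of peaks on chromosome 10 (chr10:5852507-6002609), the mitochondrial chromosome and contigs of unknown position were left out. The rule gave 2038 regions of 6680 in all, or 30.5% (95% Clopper-Pearson interval 29.4 to 31.6). They were 66.6% of the 3061 regions with a peak in both ESC lists outside the parts left out. The parts left out held 5 further regions that met the rest of the rule.

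ZBTB2 was mapped by ChIP-seq, the sequencing of DNA that an antibody, here against GFP, brings down with a protein from fixed chromatin. All 3 groups were of 129/Ola background and carried a bacterial artificial chromosome (BAC) with GFP-tagged ZBTB2 in the ESC line IB10 or in NPCs made from it. The serum ESCs grew in Serum/LIF, the 2i ESCs in Serum/LIF + 2i, and the NPCs in NPC medium, with 1 sample per state in the labels. The name of each list holds the word merged, whose meaning is unknown, so a list may rest on more than 1 sequencing run or replicate. The labels do not give the number of BAC copies, the level of the tagged protein or whether a line was 1 clone. Inputs and GFP immunoprecipitations of untagged cells, 5 samples in all, are not analysed here. No expression values were used, so the cell types were not checked against their markers.

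ZBTB2 belongs to a family of nuclear proteins that join a BTB domain, which binds other proteins, to zinc fingers, which bind DNA. The title of the series presents it as a protein that recognises unmethylated DNA. In mammalian genomes unmethylated CpG-rich DNA lies mainly at CpG islands, many of which are promoters. The 2i inhibitors block the kinases MEK and GSK3 and hold ESCs in a more uniform ground state, in which DNA methylation is lower across the genome than in serum. NPCs are dividing cells that have left pluripotency for the neural lineage.

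The authors deposited a score for each peak, taken here as −log10 of a p or q value from peak calling. A score grows with the width of a peak and with sequencing depth, which is unknown. Scores therefore rank peaks within a list, and values of different lists stand side by side without a comparison. With 1 list per state there is no replicate check, and the rule itself used the peak calls and serum widths. The values below are descriptions, and no p-value is given. Intervals treat regions as independent and cover counting error only.

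Nearly all narrow ESC-only regions were simple pairs of 1 serum and 1 2i peak. This held for 1922 of the 2038 regions. A further 96 had 2 or more serum peaks and 28 had 2 or more 2i peaks, with at most 3 from either list. Together they held 2135 of the 4072 serum peaks and 2067 of the 5934 2i peaks. The merged regions had a median width of 477 bp (quartiles 361 and 592) and covered 1029 kb.

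Scores of these regions were spread around the middle of each list. The median serum score was 14.2 (95% interval 13.8 to 14.8), with quartiles of 9.58 and 23.0 and a range of 3.03 to 196.6. That lay just under the median of the whole serum list, 15.3. In 2i ESCs the median score was 15.3 (14.8 to 15.9), with quartiles of 10.1 and 23.2 and a range of 3.02 to 169.9. It lay above the median of the whole 2i list, 12.2, a list that also holds 2681 regions found in no other list. Regions in both ESC lists with a serum peak of 600 bp or more and no NPC peak, the 740 wide ESC-only regions, had medians of 32.3 in serum and 28.8 in 2i. The 283 regions in all 3 lists had medians of 56.9 and 49.2.

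Narrow regions were found in all parts of both rankings. Of the 2038, 236 (11.6%) were in the top 25% of both ESC lists by score, against 26.3% of all regions in both lists. The top 25% of the serum list held 333 of them (16.3%, against 32.4% of all), and that of the 2i list held 616 (30.2%, against 44.3%). At the other end, 502 (24.6%, against 17.0%) were in the bottom 25% of the serum list and 287 (14.1%, against 10.1%) in that of the 2i list. The bottom 25% of both lists held 115 (5.64%, against 3.85%). Since score rises with width and the rule set a limit on width, these counts describe the selection.

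**Figure D1:**
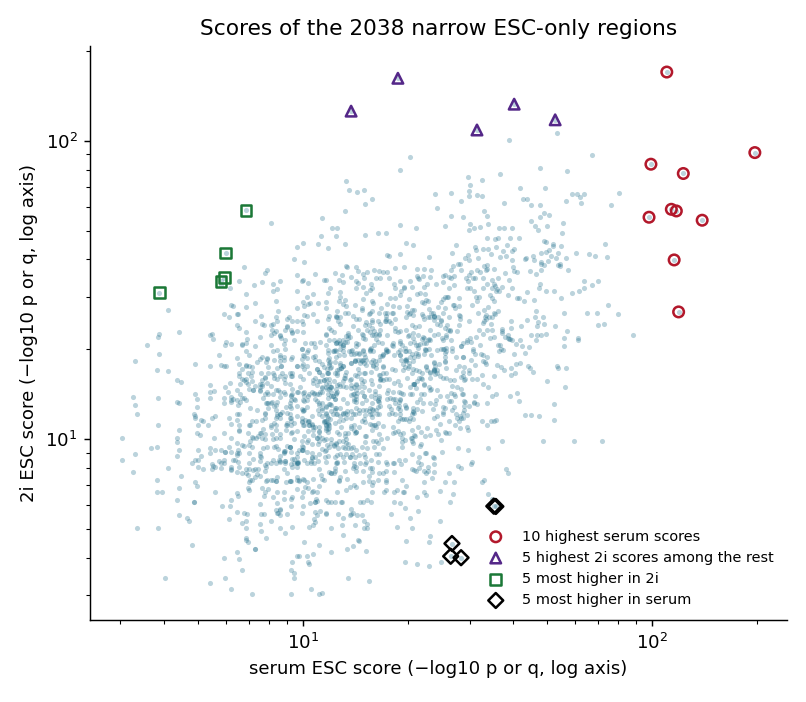
Score of each of the 2038 narrow ESC-only regions in serum ESCs (x axis) and 2i ESCs (y axis), both −log10 of a p or q value, on log axes. Each dot is 1 region, and open symbols mark the regions named in the text. The cloud is broad: the Spearman correlation across regions is 0.44, and the 10 regions with the highest serum scores range from 26.7 to 169.9 in 2i ESCs.

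A small group of narrow regions reached the top of the serum list. The region at chr1:194660734-194661320 scored 196.6 in serum ESCs (rank 19 of the list) and 91.2 in 2i ESCs (rank 74). Its serum peak was 587 bp wide and its 2i peak 448 bp, and their centres were 1.5 bp apart. The region at chr11:86497087-86497661 followed with 139.0 in serum (percentile 98.8) and 54.1 in 2i ESCs (percentile 95.2). Both were thus near the top of both lists, with no NPC peak closer than 73.4 kb.

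The next 5 regions by serum score differed in their 2i scores, from 26.7 to 77.6. The region at chr3:103613131-103613641 scored 122.7 in serum and 77.6 in 2i ESCs. At chr6:83004411-83004901 the scores were 118.9 and 26.7, so that a region ranked 76 in serum was ranked 1051 in 2i. The region at chr7:16871838-16872315 had 113.4 and 58.9. These 3 had serum peaks of 479, 491 and 478 bp. Of the 10 regions, 2 lay on chromosome X, which held few narrow regions. The one at chrX:96133222-96133598 scored 117.2 in serum and 58.1 in 2i ESCs, and the one at chrX:130593562-130594122 scored 115.5 and 39.8.

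The region at chr4:140847180-140848106 was strong in both media and the highest of all narrow regions in 2i ESCs. Its serum peak scored 110.0 (rank 91) at 546 bp, and its 2i peak scored 169.9 (rank 7) at 927 bp. The last of the 10 by serum score were chr6:49269004-49269665, with 99.1 in serum and 83.4 in 2i ESCs, and chr8:73222688-73223214, with 97.9 and 55.4. In all, 8 narrow regions were in the top 100 of the serum list, or 0.393% against 3.20% of all regions in both lists. In the top 100 of the 2i list there were 13, or 0.638% against 3.17%, and only the chromosome 1 and chromosome 4 regions above were in the top 100 of both (0.0981% against 1.70%).

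Other narrow regions were strong in 2i ESCs and stood lower in the serum list. At chr12:92577085-92577774 the 2i peak scored 161.9 (rank 8) and spanned 690 bp, whereas the serum peak scored 18.7 (rank 1695) and spanned 263 bp. The region at chr1:182724058-182724575 scored 125.6 in 2i ESCs (rank 23) and 13.7 in serum (rank 2261). For chr19:43749565-43750151 the scores were 132.6 in 2i ESCs and 40.2 in serum. In the region at chr12:66273418-66274121 they were 117.5 and 52.7, and in that at chr15:25552176-25553125 they were 108.6 and 31.5. All 5 were above 99% of the 2i list, but their places in the serum list ran from percentile 44.4 to percentile 90.0.

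The extremes of the difference in place lay far apart. On the 2i side, chr11:70050955-70051527 was at percentile 92.0 of the 2i list (score 42.0) and percentile 6.61 of the serum list (score 5.9998). The region at chr8:34763814-34764436 scored 58.4 in 2i ESCs and 6.87 in serum, and that at chr18:80347503-80347823 scored 31.0 and 3.88. Next were a pair on chromosome 13, chr13:58502757-58503514 with 33.8 and 5.82, and chr13:56236230-56237240 with 34.8 and 5.95. Of these 5 regions, 4 had a wider 2i than serum peak by 250 bp or more, the exception being the chromosome 18 region (281 against 253 bp).

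On the serum side, chr5:149996078-149996368 was at percentile 74.6 of the serum list (score 28.3) and percentile 1.79 of the 2i list (score 4.003). The region at chr9:44580859-44581148 scored 35.6 in serum and 5.94 in 2i ESCs, and that at chr13:73741292-73741637 scored 35.2 and 5.96. At chr15:59205549-59205888 the scores were 26.5 and 4.05, and at chr11:96838480-96838975 they were 26.7 and 4.47. The serum peaks of these 5 regions were 268 to 479 bp wide. None of the 10 regions had an NPC peak within 100 kb, and only 135 of all 2038 narrow regions (6.62%) had one.

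The share of narrow regions that stood higher in 2i than in serum depended on the ranking. Against all peaks of each list, 1350 of 2038 (66.2%, interval 64.1 to 68.3) had a higher percentile in 2i ESCs, close to the 64.0% of all regions in both lists. The 2i list is the longer of the 2, so percentiles in the whole lists are not like for like. Ranked only among the 3061 regions in both lists, 1062 (52.1%, 49.9 to 54.3) stood higher in 2i, against 49.4% of all. In that ranking 87 narrow regions (4.27%, against 3.23% of all) stood over 50 percentile points higher in 2i, and 50 (2.45%, against 2.61%) over 50 points higher in serum. The ranking among shared regions was chosen after the data were seen.

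Serum and 2i scores followed each other only loosely within the narrow class. The Spearman correlation was 0.44 across the 2038 narrow regions, 0.60 across the 740 wide ESC-only regions and 0.75 across the 283 regions in all 3 lists. Regions of a class share the same libraries, and a narrower range of scores lowers a correlation, so these values are descriptions. Within the narrow class the width and the score of a peak had a correlation of 0.54 in serum and 0.56 in 2i ESCs. Serum and 2i widths had a correlation of 0.39, against 0.50 for wide ESC-only regions and 0.75 for the regions in all 3 lists. The rule limits the range of serum widths in the narrow and wide classes, which lowers such a correlation. Nothing is read from the difference in this correlation.

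Scores were higher at wider peaks inside the narrow class. The 146 regions with a serum peak under 200 bp had a median score of 8.58 in serum and 11.1 in 2i ESCs. For the 566 regions of 300 to 399 bp the medians were 14.8 and 15.0, and for the 334 regions of 500 to 599 bp they were 24.4 and 21.1. The median 2i width over the same 3 groups was 295, 373 and 538.5 bp. The 2i values, which the width limit did not use, were thus also higher where the serum peak was wider. The smallest serum peak was 180 bp and the smallest 2i peak 156 bp, and 179 of the 2135 serum peaks in narrow regions (8.38%) lay within 20 bp of that minimum.

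The limit of 600 bp cuts through a continuous range. In the 50 bp below it, 164 regions without an NPC peak had a median serum score of 25.1, a median 2i score of 21.2 and a median 2i width of 540 bp. In the 50 bp from the limit upward, 141 regions had 24.8, 20.9 and 574 bp. Narrow regions close to the limit were thus nearly the same in score as wide regions just past it. Of all regions in both ESC lists, 9 of 173 (5.20%, 2.41 to 9.65) had an NPC peak just below the limit. Just above it 21 of 162 (13.0%, 8.21 to 19.1) had one, with intervals that overlap. The NPC peak and the serum width belong to the rule, so these shares are descriptions.

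Most regions that were narrow in serum were also narrow in 2i ESCs. The widest 2i peak was under 600 bp in 1635 of 2038 (80.2%, interval 78.4 to 81.9), against 61.7% of all regions in both lists. Among wide ESC-only regions it was under 600 bp in 204 of 740 (27.6%, 24.4 to 30.9), and the intervals do not overlap. Median 2i width was 403 bp (390 to 414) in the narrow and 757.5 bp (730 to 784) in the wide class. The 2i width was measured in a library that the width limit did not use.

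**Figure D2:**
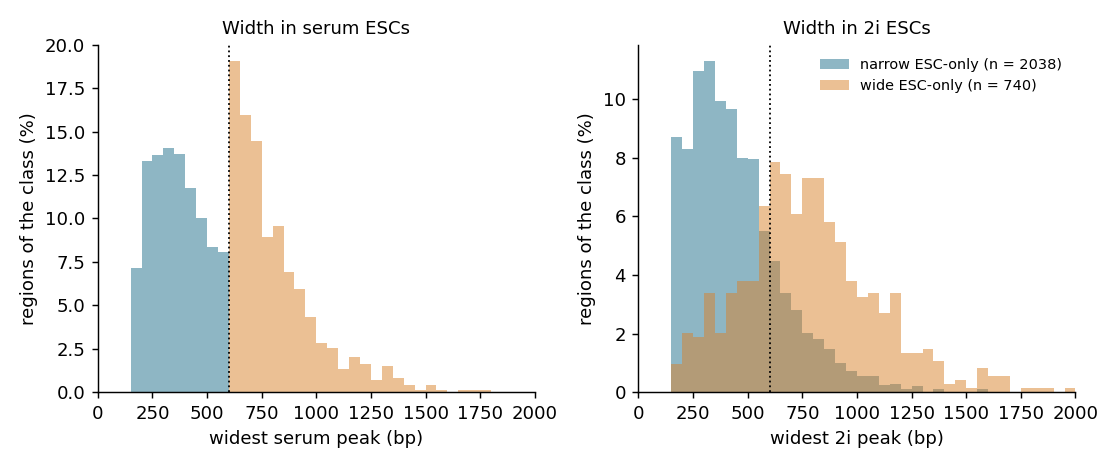
Distribution of the widest serum peak (left) and the widest 2i peak (right) in bp, as percent of the 2038 narrow and the 740 wide ESC-only regions, in bins of 50 bp. The dotted line is the limit of 600 bp, which separates the classes fully in serum by construction and leaves 403 narrow regions above it and 204 wide regions below it in 2i ESCs.

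The other 403 narrow regions had a 2i peak of 600 bp or more. Their median width was 430 bp in serum and 732 bp in 2i ESCs, and their median score was 15.7 in serum and 23.5 in 2i ESCs. The 1635 regions that were narrow in both media had a median score of 13.9 in serum and 13.8 in 2i ESCs. The widest 2i peak of all narrow regions spanned 1590 bp at chr13:55312372-55313961, with a score of 88.4, over a serum peak of 346 bp with a score of 20.3. The 2i peak at chr6:47997371-47998946 spanned 1576 bp and the one at chr8:111227570-111228951 spanned 1382 bp. The next were chr3:41368453-41369864 with 1361 bp and chr2:106533452-106534746 with 1295 bp. In 3 of these 5 (chromosomes 6, 8 and 3) a single 2i peak overlapped 2 separate serum peaks.

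How often the 2i peak was the wider one depended on the list to which the limit applied. Of the 2038 narrow regions, 1263 (62.0%) had a wider 2i peak and 765 (37.5%) a wider serum peak. Setting the same limit on the 2i peak gave 1839 regions, of which 860 (46.8%) had a wider 2i peak and 969 (52.7%) a wider serum peak. With no limit on width, 1586 of 2778 ESC-only regions (57.1%) had a wider 2i peak. The limit on the 2i peak was tried after the data were seen.

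Serum and 2i peaks of the narrow regions were centred on nearly the same position. The centres of the highest-scored serum and 2i peaks lay a median of 46.5 bp apart (interval 43.5 to 49.5, quartiles 21 and 94). The distance was at most 50 bp in 1076 regions (52.8%), at most 100 bp in 1563 (76.7%) and over 200 bp in 123. In wide ESC-only regions the median was 61.5 bp (52.5 to 68). As a share of the serum width the order was the other way, 13.4% in narrow and 7.57% in wide regions. Since peaks had to overlap and the serum width was limited, the rule bounds this distance and nothing is read from the difference. In the regions of all 3 lists the centres were a median of 43.5 bp (37.5 to 54) apart.

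The serum peak lay wholly inside the 2i peak in 714 narrow regions (35.0%). The 2i peak lay inside the serum peak in 423 (20.8%), and in 901 (44.2%) the peaks were staggered. In wide ESC-only regions the serum peak lay inside in 23.1% and the 2i peak in 32.0%. In the regions of all 3 lists these shares were 36.0% and 21.6%. The rule limits the serum width and not the 2i width, so nothing is read from the order in narrow regions. A median of 92.1% of the serum peak was covered by the 2i peak. At the serum centre 94.5% of narrow regions were under a 2i peak, and 300 bp to its right 20.8% still were. Only 1.23% were under a serum peak there, which the width limit fixes except where a region has a further serum peak. Nothing is read from that difference.

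**Figure D3:**
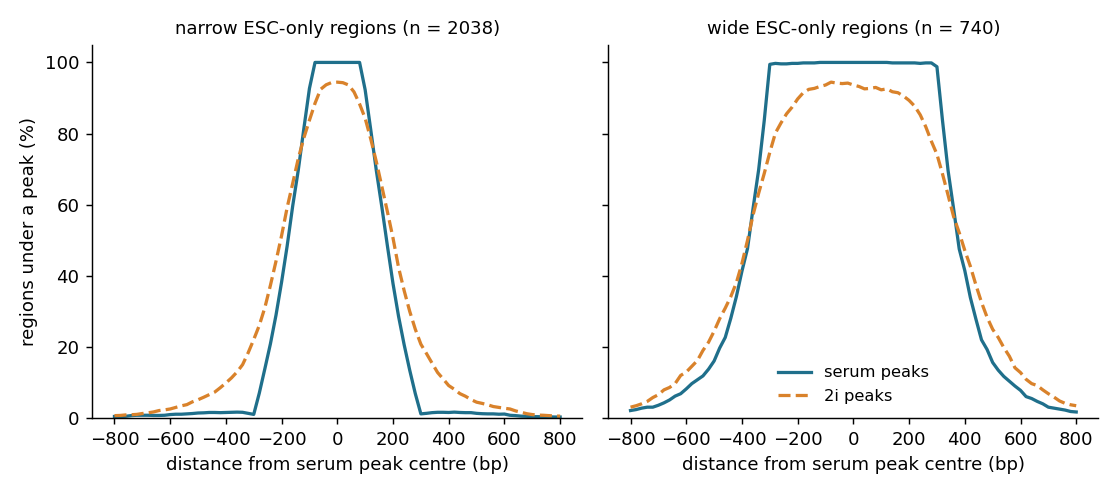
Percent of regions under a serum peak (solid) or 2i peak (dashed) at each distance in bp from the centre of the highest-scored serum peak, for the 2038 narrow (left) and 740 wide ESC-only regions (right). In the narrow class the 2i curve peaks at the serum centre, at 94.5%, and spreads beyond the serum curve on both sides, which the limit on serum width holds within 300 bp of the centre except where a region has a further serum peak.

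NPC peaks, 320 in the whole list, were rare where the serum peak was narrow. A total of 2095 regions in both ESC lists had a serum peak under 600 bp, of which 57 (2.72%, interval 2.07 to 3.51) had an NPC peak and were therefore not members. Of the 966 with a wider serum peak, 226 (23.4%, 20.8 to 26.2) had one, and the share over both was 9.25%. By serum width the share went from 1.26% at 200 to 299 bp to 6.18% at 500 to 599 bp, and on to 10.4% at 600 to 699 bp and 52.1% from 1200 bp upward. The presence of an NPC peak and the serum width both belong to the rule, so these shares are descriptions.

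For a description by score, the regions in both ESC lists were split into 5 bins of equal size. The presence of an NPC peak and the serum width chose the members, so nothing is read from a difference between narrow and wide shares. In the bin of highest serum scores, above 40.05, 24 of 168 narrow regions (14.3%, 9.37 to 20.5) had an NPC peak, against 170 of 444 wide regions (38.3%, 33.7 to 43.0). In the next bin, from 23.9 to 40.05, the counts were 14 of 344 (4.07%, 2.24 to 6.73) and 40 of 268 (14.9%, 10.9 to 19.8). In the third bin they were 7 of 444 (1.58%) and 15 of 166 (9.04%). The order was the other way in the second bin, with 8 of 547 (1.46%) narrow and 0 of 65 wide regions (0%, 0 to 5.52). That interval includes the narrow share. The lowest bin held 4 of 592 (0.676%) narrow regions with an NPC peak and 1 of 23 wide ones (4.35%, 0.110 to 21.9). Ranked by 2i score instead, the highest bin gave 20 of 192 narrow (10.4%, 6.48 to 15.6) and 165 of 419 wide regions (39.4%, 34.7 to 44.2). The second bin of 2i scores gave 5 of 508 narrow (0.984%, 0.320 to 2.28) and 4 of 103 wide regions (3.88%, 1.07 to 9.65). Scores were not equal within a bin. In the highest bin of serum scores the median was 52.3 for narrow and 64.9 for wide regions, and in the next 29.8 and 31.0.

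**Figure D4:**
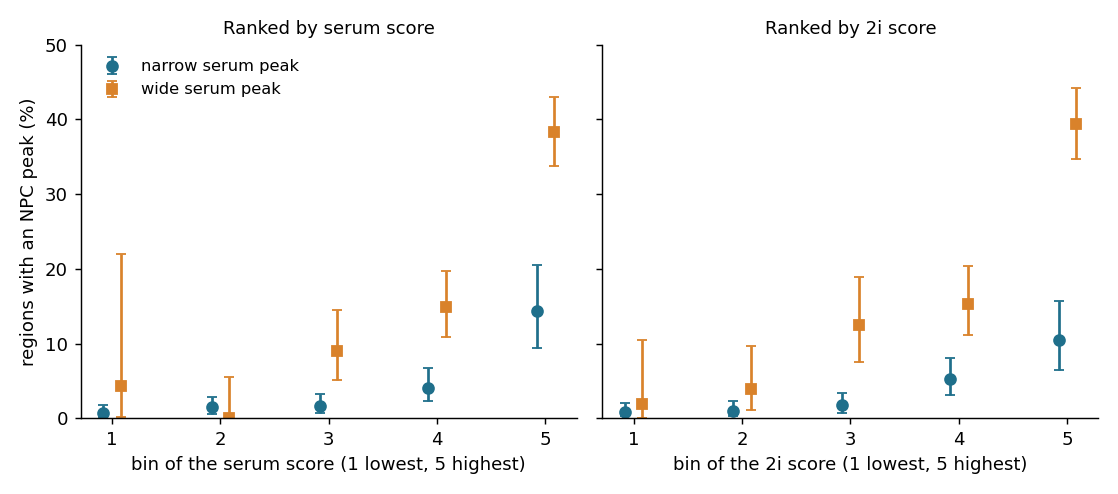
Percent of regions in both ESC lists that have an NPC peak, in 5 equal bins of the serum score (left) or the 2i score (right), for regions whose widest serum peak is under 600 bp (circles) or wider (squares). Bars are 95% Clopper-Pearson intervals. In the highest bin of serum scores the shares are 14.3% and 38.3%, and in the second bin 1.46% and 0 of 65 regions; both the NPC peak and the width belong to the rule, so the plot is a description.

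The 57 narrow regions that did have an NPC peak are set beside the members as a description, since the NPC peak and the serum width chose the members. Their median score was 32.0 (24.8 to 48.8) in serum and 32.8 (24.8 to 36.7) in 2i ESCs, against 14.2 and 15.3 in the 2038 without one. Their median serum width was 468 bp (421 to 508) against 355 bp (347 to 364). Their median 2i width was 520 bp (476 to 581) against 403 bp (390 to 414).

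Narrow regions without an NPC peak were usually far from any. The NPC list held only 320 peaks, so a long distance to one is not particular to narrow regions. Regions in all 3 lists lay a median of 1603 kb from the nearest other region of their kind. The nearest NPC peak was a median of 1965 kb away (1783 to 2184), and for wide ESC-only regions the median was 1784 kb (1536 to 2291), with intervals that overlap. Only 17 narrow regions (0.834%) had an NPC peak within 1 kb and 27 (1.32%) within 10 kb. Those nearest lay beside a region of all 3 lists. At chr15:99125928-99126401, with scores of 19.7 in serum and 18.3 in 2i ESCs, the gap to an NPC peak was 95 bp. That NPC peak scored 56.6 and belonged to a region with a serum score of 366.4 and a 2i score of 220.8, the highest of the 2i list. The region at chr17:63848903-63850041 lay 113 bp from an NPC peak scored 9.47. At chr2:104656460-104656859 the gap was 176 bp, to an NPC peak scored 5.86 in a region that scored 67.3 in serum.

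Many narrow regions had another ZBTB2 region close by. Within 1 kb lay another region of any list for 360 of 2038 (17.7%, 16.0 to 19.4), within 10 kb for 551 (27.0%) and within 100 kb for 1470 (72.1%). The median distance to the next region was 43.2 kb (39.2 to 45.9). Wide ESC-only regions had a neighbour within 1 kb in 15.1% (12.6 to 17.9) and a median distance of 52.8 kb (46.4 to 61.8). The intervals of the shares within 1 kb overlap, and those of the medians nearly touch. Close regions count as neighbours of each other and are not independent, so nothing is read from the difference between the medians. For the 283 regions in all 3 lists the median was 49.6 kb (31.9 to 64.4), whose interval overlaps that of the narrow class.

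The close neighbours were of several kinds. Of the 360, 150 (41.7%) had a region found in the 2i list alone as their nearest, 100 (27.8%) another narrow ESC-only region, 57 (15.8%) a region found in the serum list alone and 34 (9.44%) a wide ESC-only region. For 18 (5.00%) it was a region in all 3 lists, which scored higher than the narrow region in serum in 16 of the 18 cases and in 2i ESCs in 13. Beside a wide ESC-only region the neighbour scored higher in serum in 27 of 34 cases and in 2i ESCs in 30. Next to a region of the 2i list alone, the narrow region had the higher 2i score in most cases, the neighbour scoring higher in 35 of 150. A neighbour of the serum list alone scored higher in serum in 16 of 57 cases. Peak calls and serum width set these classes and go with score, so these counts describe the selection. Narrow regions with a neighbour within 1 kb had a median serum score of 13.8 (12.4 to 15.0), and those without had 14.2 (13.8 to 15.0), so their scores did not separate.

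Runs of narrow regions were short. With gaps of at most 10 kb, 1824 regions stood alone, 192 formed 96 pairs, 18 formed 6 runs of 3, and 4 formed a single run. The run of 4 spanned 4.1 kb on chromosome 11 at chr11:97521411-97525509. Its serum scores were 43.3, 23.5, 10.8 and 15.7 from left to right, and its 2i scores were 12.0, 26.4, 6.17 and 23.6. The first of the 4 was thus the strongest in serum but not in 2i ESCs. Each of the 4 was a separate interval in both lists, with serum widths of 257 to 536 bp. The region at chr8:73222688-73223214 named above closed a run of 3 within 3.94 kb, whose other members scored 16.6 and 21.0 in serum ESCs.

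Narrow regions lay on all numbered chromosomes and X. Densities, per Mb of the span up to the last peak of any list, ran from 0.543 on chromosome 14 to 1.30 on chromosome 19 among autosomes, with 1.27 on chromosome 11. Chromosome 2 held the most regions, 189 (9.27%). Narrow regions made up 77.1% (70.0 to 83.1) of the regions in both ESC lists on chromosome 9 and 60.5% (51.3 to 69.1) on chromosome 12, against 66.6% over all. With 20 chromosomes looked at, the chromosome 9 share is given as a description. Density by span takes no account of promoters, of mappable sequence or of the number of X copies.

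Chromosome X carried 21 narrow regions, or 1.03% (0.639 to 1.57) of the class, on 6.34% of the span. The density was 0.126 per Mb, below that of every autosome, and wide ESC-only regions had 0.0360 per Mb there. The narrow share of regions in both lists was 72.4% (52.8 to 87.3) on X, an interval that includes the 66.6% over all. Apart from the 2 regions with serum scores above 100, the other 19 scored between 5.82 and 43.8 in serum ESCs. The median over the 21 was 13.7 in serum and 14.3 in 2i ESCs, near the 14.2 and 15.3 of the class. The highest 2i score on X was 67.0 at chrX:98417688-98418093, with 26.5 in serum.

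**Figure D5:**
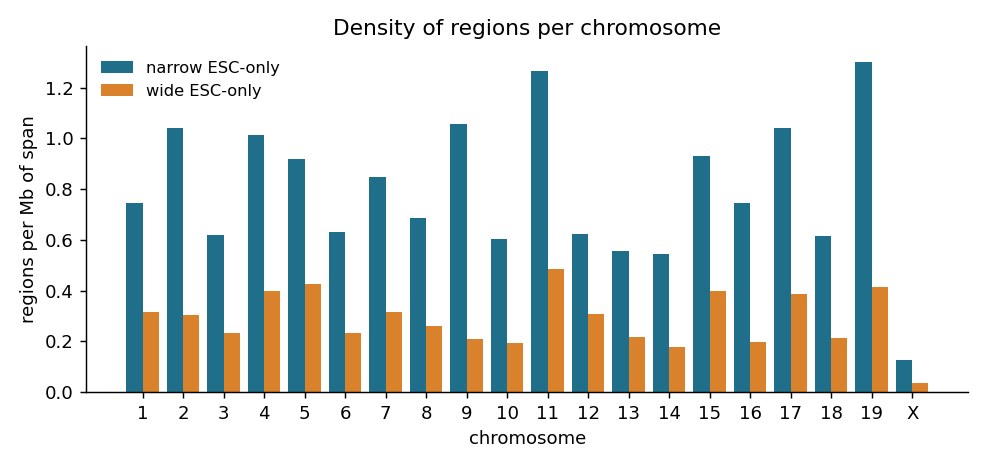
Regions per Mb of chromosome span, for narrow (dark) and wide (light) ESC-only regions on each chromosome, with bars starting at 0. Chromosome X stands lowest in both classes, at 0.126 and 0.0360, and chromosomes 19 and 11 stand highest for the narrow class, at 1.30 and 1.27.

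The class depends most on how far down the ESC lists are read. With the higher-scored 50% of each ESC list, 734 narrow regions were left in place of 2038, their median scores were 25.7 in serum and 23.2 in 2i ESCs, the median distance to the next region was 82.9 kb, and 5.66% of narrow regions had an NPC peak. Without the untagged immunoprecipitations, the part that antibody background plays in weak peaks was not tested.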

How the data were processed

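ZBTB2-GFP ChIP-seq of 3 samples, 1 per state, was analysed; the other 5 of the 8 samples are not analysed here. The authors deposited a list of peaks per sample on mm9, and the submitters' processing notes name MACS2 2.0 and SAMtools. No aligner or control library is given in the sources used here. The list names hold the word merged, and whether it stands for pooled replicates or runs is unknown. The deposited score was taken as −log10 of a p-value or q-value, since the lowest score of each list is right above −log10 of the value in its name (0.001 for ESCs, 0.01 for NPCs).

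Peaks were merged at 1 bp overlap with Python 3.11.15, numpy 2.4.6, pandas 2.3.3 and scipy 1.17.1, and drawn with matplotlib 3.10.9. A region took the highest score and the widest peak of each list. The number of regions, 6680, equalled that of bedtools 2.31.1, and classes planted in simulated lists of 4072 regions were recovered with a difference of 0. The planted regions of these classes lay far apart, each with at most 1 peak per list. The simulation thus did not check the classes of close regions or of regions with several peaks of a list. Medians carry order-statistic and shares Clopper-Pearson 95% intervals. Starts are 1-based.

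Members and lists were chosen with earlier results of these data known. Named regions are the 10 highest serum scores, the 5 highest 2i scores among the rest, the 5 largest percentile differences each way, the 3 nearest to an NPC peak, the longest run and the 5 widest 2i peaks. Further regions of chromosome X and of runs were chosen after their values were seen. Gene, start-site, GC, motif and sequence analyses were planned and are not analysed here, because the tables at hand are of GRCm38.p6 and coordinates were not converted. Alternatives covered overlap, width limit, score, NPC distance and the parts left out.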

Additional observations from a re-analysis of the deposited data

How the results depend on the processing

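Over 10 results, 97 settings were run: 66 stayed within the interval of the reported value, or within 1.5 times the count, and 31 moved. An NPC score above 3, nothing left out, mean scores, widest peaks and the highest-scored 2i peak moved none. These settings touch few regions and could move little. Only 4 of 320 NPC peaks scored 3 or less, and the parts left out held 5 regions that met the rest of the rule. Of the members, 96 had 2 or more serum peaks and 28 had 2 or more 2i peaks. Measuring the distance to the next region from centre to centre did not move it either. The X share stayed within its interval in every setting. Values follow the order serum score, 2i score, 2i width in bp, rank correlation and percent of narrow regions with an NPC peak. A 500 bp limit gave 13.0, 14.4, 375, 0.38 and 2.01, and a 700 bp limit 15.2, 16.1, 425, 0.48 and 3.65; the median 2i width in the 50 bp below the limit became 492.5 and 670 bp. A reciprocal overlap of 50% gave a serum score of 15.6, a 2i width of 389 bp, a correlation of 0.50, an NPC share of 1.75%, a centre distance of 37 bp and 36.4 kb to the next region. Joining peaks within 1 kb gave a centre distance of 51 bp and 60.4 kb, by construction. A limit on the whole region gave a 2i score of 13.7, a 2i width of 349 bp and a centre distance of 36.5 bp. The higher-scored 50% gave 734 regions, scores of 25.7 and 23.2, a 2i width of 471 bp, a centre distance of 40 bp, 82.9 kb and an NPC share of 5.66%, with fewer peaks by construction. Counting NPC peaks within 10 kb gave 4.01%. Added after the data were seen, ranking among shared regions gave 52.1% higher in 2i, and a limit on the 2i width gave 46.8% with a wider 2i peak. Alternatives on GC content and start sites were not run. No paired analysis was possible because each state had 1 sample. Depth is unknown, so its limit has no number.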
